A study of Homo sapiens with 18 samples.

Results

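The transcripts described here are those of 8 genes of innate recognition: the lipopolysaccharide receptor TLR4, its co-receptor CD14, the macrophage lysosomal glycoprotein CD68, and 5 genes that carry the signal of TLR4 inward, TIRAP, MYD88, IRAK1, TRAF6 and TICAM1. They were chosen by name as a group of known roles, with earlier results of these data in view, and are 8 of the 13992 gene symbols in the deposited table. All 8 passed the filter on low values that was set for testing. TLR4 rose at 50 and 100 µg/ml of oxidized low-density lipoprotein (oxLDL) and CD14 fell at the same doses. Per base of transcript length, TLR4 went from the lower to the higher of the pair. CD68 followed the dose as a trend but did not pass the test at any single dose, and no gene of the signalling chain passed it at any dose.

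TLR4 stands on the cell surface together with MD-2, the product of LY96, and takes lipopolysaccharide from CD14, which in turn receives it from the plasma protein LBP. From the plasma membrane the signal runs through the adaptors TIRAP and MYD88 to the IRAK kinases and the ubiquitin ligase TRAF6, and from there to NF-kB and the MAP kinases. After TLR4 has been internalized, a step that CD14 promotes, the adaptors TICAM2 and TICAM1 (also called TRAM and TRIF) lead to TBK1, IRF3 and interferon-linked genes. In lipid-laden macrophages a complex of CD36, TLR4 and TLR6 has been described as a sensor of oxLDL, and CD68 is widely used as a stain for phagocytic microglia and macrophages.

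RNA was measured in HMC3, a human line that was immortalized from microglial cultures. The cells were labelled wild type and received oxLDL for 24 h, at doses of 100, 50, 10, 2.5 and 1 µg/ml and none at all (0 µg/ml, called untreated below). Each of the 6 doses had 3 libraries, and no other agent was named. All libraries carried 1 batch label. Whether the 3 libraries of a dose stem from 3 cultures is not labelled. Every p-value therefore sets a difference between doses only against the spread of these libraries, which may be technical. The microglia and macrophage markers P2RY12, TMEM119, CX3CR1, AIF1, CSF1R, PTPRC, ITGAM, TREM2 and SPI1 were not listed in the table, so the labelled cell type rests on few of its defining transcripts here. Of 10 markers of pericytes and fibroblasts 7 were listed, and their summed level was 586 to 641 FPKM at 0 µg/ml and 415 to 465 FPKM at 100 µg/ml. Most of that sum is COL1A1 (496 ± 25.5 FPKM at 0 µg/ml and 356 ± 20.3 FPKM at 100 µg/ml, SD, n = 3). With COL1A1, THY1 and PDGFRB were called lower at 100 µg/ml, and COL1A2 (-0.12), CSPG4 (0.07) and ACTA2 (0.01) were not called. The part of these changes in the results below was not tested. A line is 1 cell population sequenced in bulk, in which fewer cells that carry a transcript and less of it per cell cannot be told apart.

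Levels are FPKM, which divide fragment numbers by transcript length and library size and allow genes to be compared per length. Recovered depths were 13919066 to 37382244 reads per library. Genes with at least 0.5 FPKM in at least 3 libraries were tested (12127 genes) by limma on log2(FPKM + 0.5). Changes of low genes such as TLR4 and CD14 come out smaller on this scale than as ratios. Folds below are differences on that scale with the limma standard error (SE). A gene was called at a Benjamini-Hochberg adjusted p under 0.05 over all genes tested. All comparisons with 0 µg/ml share the same 3 control libraries. The medians of all genes tested were 0.0041 at 50 µg/ml and -0.0037 at 100 µg/ml.

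The upstream sequences of the 3 members whose levels followed the dose, TLR4, CD14 and CD68, are shown first, in windows of 30 bases around each match to 7 short motifs of factors known from myeloid, inflammatory and oxidative gene control. The motifs were NF-kB (GGG, any 5 bases, then CC), AP-1 (TGANTCA), the PU.1 core (GAGGAA), the Sp1 box (GGGCGG), C/EBP (TTGCNNAA), the core of the antioxidant response element (TGACNNNGC) and the interferon-stimulated element (GAAA, any 2 bases, then GAAA), each searched on both strands in the 250 bases before the RefSeq start. Sequences are from RefSeq's GRCh38.p14 table, which matched 7 of the 8 members (all but TIRAP), and are printed 5′ to 3′ on the gene's strand, with capitals marking the match. In the GENCODE v29 annotation these genes start further upstream, TLR4 at base 117704175, CD68 at 7579467 and CD14, on the minus strand, at 140633701. All windows lie within the annotated gene except the first of TLR4, which spans its start, and the first of CD68. No match overlapped another in these 3 genes. The 4 windows of TLR4 lie on the plus strand of chromosome 9.
TLR4, PU.1 core, chr9:117704167-117704196: aagccaactagcTTCCTCttgctgtttctt
TLR4, PU.1 core, chr9:117704220-117704249: tcttcttctaacTTCCTCtcctgtgacaaa
TLR4, PU.1 core, chr9:117704292-117704321: tgccgctttcacTTCCTCtcaccctttagc
TLR4, Sp1 box and PU.1 core, chr9:117704346-117704375: ttgctgtgGGGCGGctcGAGGAAgagaaga
The windows of CD14 lie on the minus strand of chromosome 5, and those of CD68 on the plus strand of chromosome 17.
CD14, AP-1, chr5:140633381-140633410: gcctggggcgccTGAGTCAtcaggacactg
CD14, PU.1 core, chr5:140633254-140633283: ggggctggctcgGAGGAAgagaggtgggga
CD68, antioxidant response element core, chr17:7579436-7579465: tgtgacactgtTGACTTTGCcctgatgaag
CD68, AP-1, chr17:7579526-7579555: agctgaggccccTGAGTCAggctgtgggtg
CD68, PU.1 core, chr17:7579578-7579607: tgagactttcatTTCCTCctttccaagaga
CD68, C/EBP, chr17:7579608-7579637: gggctgagggagcagggTTGAGCAActggt

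The PU.1 core, the recognition letters of a myeloid transcription factor, stood in all 3 of these upstream regions, in that of MYD88 and in 23.4% of 27305 promoters of the same length. TLR4 held 4 matches to it, a number reached or passed by 14 of the 27305 promoters (0.0513%), and 3 of the 4 were read as TTCCTC on the gene's strand. This count was singled out after it was seen. CD14 and CD68 each held 1 match to the PU.1 core and 1 to AP-1, which 6.6% of promoters hold. CD68 also held 1 match to the antioxidant response element core (11.0% of promoters) and 1 to C/EBP (9.13%). The Sp1 box, which TLR4 held once, was in 42.3% of promoters, and the interferon-stimulated element, found in none of these 3 but once in MYD88, was in 3.07%. TLR4, CD14 and CD68 had no match to the NF-kB letters, which 53.7% of promoters hold, and MYD88, IRAK1, TRAF6 and TICAM1 had it at 2, 8, 2 and 4 distinct positions, some of which overlap by all but 1 base or match on both strands. The upstream regions of the 4 adaptor and kinase genes with an entry were richer in G and C (64.4% to 82.4%) than those of TLR4 (46.4%), CD14 (54.8%) and CD68 (51.6%). These matches are descriptions of letters, not of binding, and SPI1, the gene of PU.1, was not listed in the table.

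TLR4 (GRCh38, chromosome 9, 117704175 to 117724730, plus strand) encodes the signalling receptor of the group. Per length it was the lowest of the 8 in cells without oxLDL. Its level was 0.737, 0.804 and 0.829 FPKM in the 3 libraries at 0 µg/ml. At 1 µg/ml it was 0.705, 0.769 and 0.749 FPKM, at 2.5 µg/ml 0.716, 0.926 and 0.784 FPKM, and at 10 µg/ml 0.684, 0.780 and 0.876 FPKM. At 50 µg/ml it was 1.17, 1.13 and 1.19 FPKM, and at 100 µg/ml 1.38, 1.53 and 1.57 FPKM. The doses up to 10 µg/ml overlapped one another, and all 6 libraries at 50 and 100 µg/ml lay above all 12 libraries at the lower doses. The means were 0.790 ± 0.047 FPKM (SD, n = 3) in untreated cells, 1.16 ± 0.03 at 50 µg/ml and 1.49 ± 0.10 at 100 µg/ml, which is a ratio of means of 1.47 and of 1.89.

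TLR4 was called at both high doses. Its fold was 0.37 at 50 µg/ml (SE 0.07, limma adjusted p = 0.00555), where 3.78% of all genes tested were called higher and 3.69% lower. At 100 µg/ml it was 0.62 (SE 0.07, limma adjusted p = 2.05e-05), where 7.94% were called higher and 7.51% lower. The step from 10 to 50 µg/ml, which does not use the control libraries, gave a fold of 0.38 (limma adjusted p = 0.00998), against 1.39% of genes called higher and 1.22% lower (2.61% in all). That call was lost without replicate 1 or 2 at 10 µg/ml (adjusted p = 0.0660 and 0.0537) and with only those doses in the fit (0.0917). From 50 to 100 µg/ml the libraries of TLR4 did not overlap, but the fold of 0.26 (95% interval 0.10 to 0.41) had an adjusted p of 0.241 in limma and of 0.0301 in limma-voom on recovered reads. At that step limma called 0.28% of genes (0.0577% lower) and 0 of the 8 members, with 1 member at an unadjusted p under 0.05. The calls of TLR4 at 50 and 100 µg/ml held in all 28 other settings that tested it, each single library left out included, with adjusted p of at most 0.0335 and 0.00137. Its low FPKM goes with a long transcript: 182 to 730 reads lay behind each value, and the reads summed over a dose were 768 in untreated cells and 1325 at 100 µg/ml. Scaled to depth these are 10.2 RPM (reads scaled to the recovered depth; 95% Poisson interval 9.47 to 10.9, counting error only) and 19.1 RPM (18.1 to 20.2). An exon of TLR4 shares 558 bases with the gene model AL160272.2 on the same strand, which is not listed in the table, and how reads in the shared bases were counted is not stated.

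CD14 (chromosome 5, 140631728 to 140633701, minus strand), the anchored co-receptor that hands lipopolysaccharide to TLR4, went the other way. Its level was 0.976, 1.17 and 1.09 FPKM at 0 µg/ml, 0.874, 0.920 and 1.03 FPKM at 1 µg/ml and 1.12, 0.976 and 0.827 FPKM at 2.5 µg/ml. At 10 µg/ml it was 1.45, 0.848 and 0.867 FPKM. The libraries at 50 µg/ml had 0.574, 0.444 and 0.576 FPKM, and at 100 µg/ml 0.883, 0.570 and 0.437 FPKM. All 3 libraries at each high dose lay below the 3 at 0 µg/ml. Replicate 1 at 100 µg/ml (0.883) stayed within the range of the lower doses, 0.827 to 1.45, whose upper end was replicate 1 at 10 µg/ml. The means were 1.08 ± 0.10 FPKM (SD, n = 3) in untreated cells, 0.531 ± 0.076 at 50 µg/ml and 0.630 ± 0.229 at 100 µg/ml, ratios of 0.492 and 0.584.

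CD14 was called lower at 50 µg/ml with a fold of -0.62 (SE 0.14, limma adjusted p = 0.0147) and at 100 µg/ml with -0.50 (SE 0.14, limma adjusted p = 0.0244). These calls depended on single libraries. The first was lost without untreated replicate 2 (adjusted p = 0.0542) or replicate 2 at 50 µg/ml (0.0633). The call at 100 µg/ml was lost without untreated replicate 2 or 3 (0.0835 and 0.0643) or replicate 2 or 3 at 100 µg/ml (0.0745 and 0.132). The direction was lower in each of these fits. The step from 10 to 50 µg/ml gave -0.57 (limma adjusted p = 0.0414), called in 12 of 28 other settings and at 0.197 without replicate 1 at 10 µg/ml. Depth limits this gene: 10 to 52 reads lay behind each value, and the lowest, 10 reads in replicate 3 at 100 µg/ml, has a 95% Poisson interval of 4.8 to 18.4 reads. Summed over a dose, CD14 had 1.79 RPM (1.5 to 2.12) in untreated cells, 0.875 (0.678 to 1.11) at 50 µg/ml and 1.03 (0.801 to 1.29) at 100 µg/ml.

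**Figure D1:**
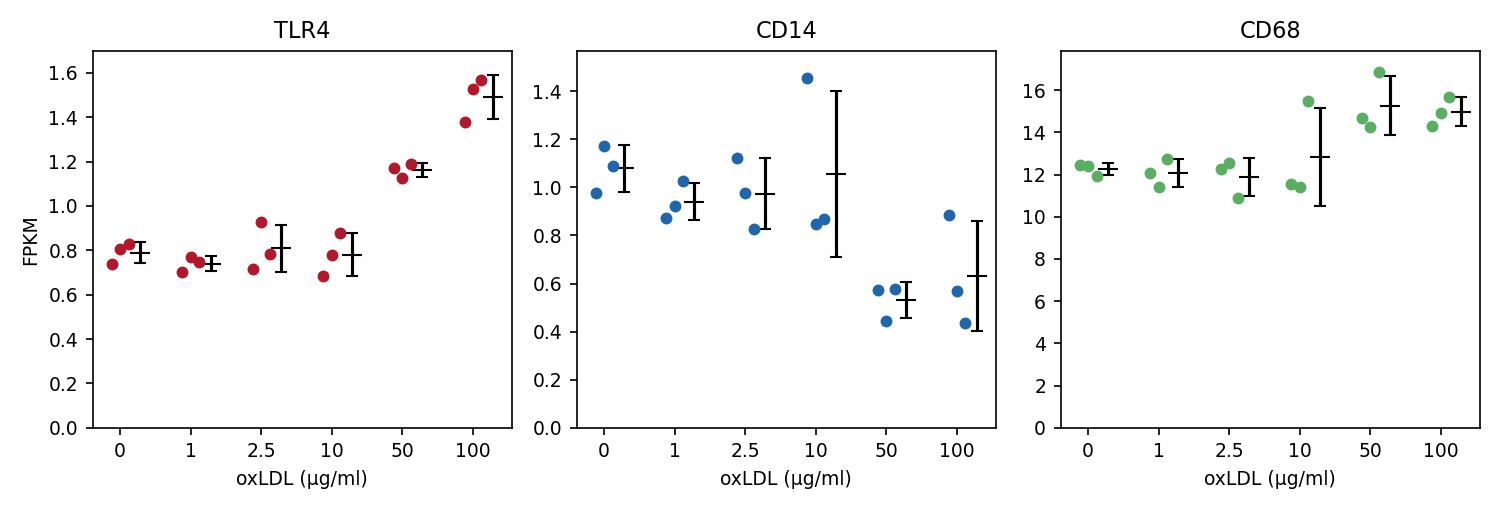
FPKM of TLR4, CD14 and CD68 (vertical axes, from 0) in each library (points, 3 per dose) against the oxLDL dose in µg/ml (horizontal axis, doses evenly spaced); black marks are means with SD. TLR4 is 0.684 to 0.926 up to 10 µg/ml and 1.13 to 1.57 at the 2 high doses, CD14 is 0.827 to 1.45 and then 0.437 to 0.883, and 1 library of CD68 at 10 µg/ml (15.5) lies among those of 50 and 100 µg/ml.

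Per length, the pair crossed between 10 and 50 µg/ml. This crossing rests on the lengths that the FPKM imply, 12797 bases for TLR4 and 1643 for CD14. By reads scaled to depth, TLR4 was the higher at 0 µg/ml too (10.2 RPM against 1.79). The change of either gene between doses does not depend on these lengths. Within a library, the ratio of TLR4 to CD14 in FPKM, which any scaling of the whole library leaves as it is, was 0.755, 0.687 and 0.761 at 0 µg/ml. At 50 µg/ml the ratio was 2.04, 2.54 and 2.06, while the libraries at 100 µg/ml gave 1.56, 2.68 and 3.58. Over the 12 libraries up to 10 µg/ml it lay between 0.470 and 1.01, with a median of 0.783, so that 1 of the 12 reached 1, and all 6 libraries at the high doses were above them. This ratio was formed after both genes' values were known and is given without a test.

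CD68 (chromosome 17, 7579467 to 7582113, plus strand), a heavily glycosylated member of the LAMP family in late endosomes and lysosomes, was per length the second most abundant of the 8. It was 12.4, 12.4 and 11.9 FPKM at 0 µg/ml, 12.1, 11.4 and 12.8 FPKM at 1 µg/ml and 12.3, 12.5 and 10.9 FPKM at 2.5 µg/ml. At 10 µg/ml it was 11.6, 11.4 and 15.5 FPKM. The libraries at 50 µg/ml had 14.7, 14.2 and 16.9 FPKM, and those at 100 µg/ml 14.3, 14.9 and 15.7 FPKM. All libraries at 50 and 100 µg/ml lay above those at 0, 1 and 2.5 µg/ml, and replicate 3 at 10 µg/ml lay among the high doses. That library also stood nearest to them on the first principal component of all genes tested (1.46, against -5.83 and -3.53 for the other libraries of its dose).

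By dose, CD68 did not pass the test: its fold was 0.30 at 50 µg/ml (95% interval 0.11 to 0.50, limma adjusted p = 0.0564) and 0.28 at 100 µg/ml (0.08 to 0.47, limma adjusted p = 0.0512). Without replicate 3 at 10 µg/ml, which enters through the shared estimate of the spread, it was called at both (0.00684 and 0.00612). It was also called at both without replicate 3 at 2.5 µg/ml (0.0496 and 0.0449), or without either of the other libraries at 10 µg/ml, replicate 1 (0.0496 and 0.0458) and replicate 2 (0.0495 and 0.0431), and at 100 µg/ml without replicate 3 at 50 µg/ml (0.0435). With only the doses compared in the fit it was called at both (0.0215 and 0.00505), as it was by limma-voom (0.0267 and 0.0285). In all, 7 of 29 other settings called it at 50 µg/ml and 10 of 29 at 100 µg/ml. Exons of CD68 share 1789 bases with the transcript model AC016876.2 on the same strand, which is not listed, and how reads in the shared bases were counted is not stated. Its values rest on 346 to 951 reads per library.

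Over the whole dose range 3 members were called, against 15.4% of all genes tested: TLR4 (limma F test over the doses, adjusted p = 1.75e-05), CD14 (0.0160) and CD68 (0.0262). The same 3 were called for a slope, as log2(FPKM + 0.5) per unit of log2(dose + 1), against 25.6% of all genes. The slopes were 0.093 (SE 0.013, limma adjusted p = 2.76e-05) for TLR4, 0.054 (SE 0.011, limma adjusted p = 0.00119) for CD68 and -0.085 (SE 0.019, limma adjusted p = 0.00209) for CD14, and held in every other setting in which each gene was tested. Over all doses, the call of CD14 was lost when replicate 2 at 50 µg/ml was left out (0.0530), and CD68 lost it without replicate 3 at 50 µg/ml (0.0625), replicate 2 at 100 µg/ml (0.0567) or replicate 3 at 100 µg/ml (0.0689). At 1, 2.5 and 10 µg/ml limma and limma-voom each called 0 of the 8 members, and 0 of the 8 had an unadjusted p under 0.05. Among all genes limma called 0 at 1 and 2.5 µg/ml (365 and 531 at an unadjusted p under 0.05) and 0.0412% at 10 µg/ml (0.033% higher, 0.00825% lower). At 50 and at 100 µg/ml limma called 2 of 8 members, TLR4 and CD14, where 7.47% and 15.5% of all genes were called. At both doses limma-voom called 3, CD68 among them, where it called 10.2% and 16.5% of all genes.

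The 5 genes of the signalling chain differed from 0 µg/ml by less than the test could call at every dose. TIRAP (chromosome 11, 126283065 to 126298845), the adaptor that brings MYD88 to the membrane, was 1.29, 1.75 and 1.16 FPKM at 0 µg/ml, 1.35, 1.62 and 1.44 FPKM at 50 µg/ml and 1.37, 1.79 and 1.74 FPKM at 100 µg/ml. These groups overlapped, and the spread at 0 µg/ml alone covered most of the range over the whole series, 1.16 to 1.94. Its fold at 100 µg/ml was 0.17 (95% interval -0.08 to 0.43, limma adjusted p = 0.387), the widest interval of the 5. MYD88 (chromosome 3, 38138478 to 38143022), the adaptor shared by most Toll-like receptors and the IL-1 receptors, was 4.16, 4.15 and 4.49 FPKM at 0 µg/ml, 4.14, 3.99 and 4.01 FPKM at 50 µg/ml and 4.15, 4.25 and 3.87 FPKM at 100 µg/ml. The libraries of MYD88 at 50 µg/ml all lay below those at 0 µg/ml, by a small margin, and those at 100 µg/ml overlapped them. Its folds were -0.07 at 50 µg/ml (-0.20 to 0.07, limma adjusted p = 0.592) and -0.05 at 100 µg/ml (-0.19 to 0.08, limma adjusted p = 0.643). The highest values of MYD88 were at 1 and 2.5 µg/ml (4.25 to 4.78 and 4.18 to 5.05 FPKM).

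IRAK1 (chromosome X, 154010500 to 154019980), the kinase recruited to MYD88, was by far the most abundant, with 87.0, 89.8 and 84.0 FPKM at 0 µg/ml. It was 92.2, 88.8 and 94.8 FPKM at 50 µg/ml and 87.8, 90.2 and 93.0 FPKM at 100 µg/ml. The groups overlapped, with folds of 0.08 (95% interval -0.01 to 0.17, limma adjusted p = 0.303) and 0.06 (-0.04 to 0.15, limma adjusted p = 0.456). Its highest value, 97.3 FPKM, was in replicate 3 at 10 µg/ml, the library in which CD68 was also high. TRAF6 (chromosome 11, 36487027 to 36510272), the ubiquitin ligase downstream of the IRAK kinases, was 3.12, 2.92 and 2.76 FPKM at 0 µg/ml, 3.10, 3.17 and 3.21 FPKM at 50 µg/ml and 3.04, 3.04 and 2.90 FPKM at 100 µg/ml. Its folds were 0.09 (-0.01 to 0.20, limma adjusted p = 0.286) and 0.03 (-0.08 to 0.13, limma adjusted p = 0.790), and the libraries overlapped at both doses. TICAM1 (chromosome 19, 4815932 to 4831704), the adaptor of the endosomal branch and of TLR3, was 6.78, 6.77 and 7.40 FPKM at 0 µg/ml, 7.36, 7.11 and 7.08 FPKM at 50 µg/ml and 8.03, 7.22 and 7.31 FPKM at 100 µg/ml. Its folds were 0.04 (-0.08 to 0.16, limma adjusted p = 0.744) and 0.10 (-0.02 to 0.22, limma adjusted p = 0.271), again with overlapping libraries.

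Across the 5 genes, the 95% intervals of the folds at 100 µg/ml were narrowest for IRAK1 (-0.04 to 0.15) and widest for TIRAP (-0.08 to 0.43). By slope, MYD88 had -0.020 (limma adjusted p = 0.0787) and IRAK1 0.012 (0.0817), both uncalled. MYD88 was called without untreated replicate 1 or replicate 2 (0.0492 and 0.0473), and IRAK1 without replicate 3 at 10 µg/ml (0.0441). TIRAP shares exonic bases with 2 antisense gene models, AP001318.1 (450) and AP001318.2 (359), which are not listed. The kit does not mark strand, so reads of these models cannot be told from those of TIRAP in the shared bases.

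**Figure D2:**
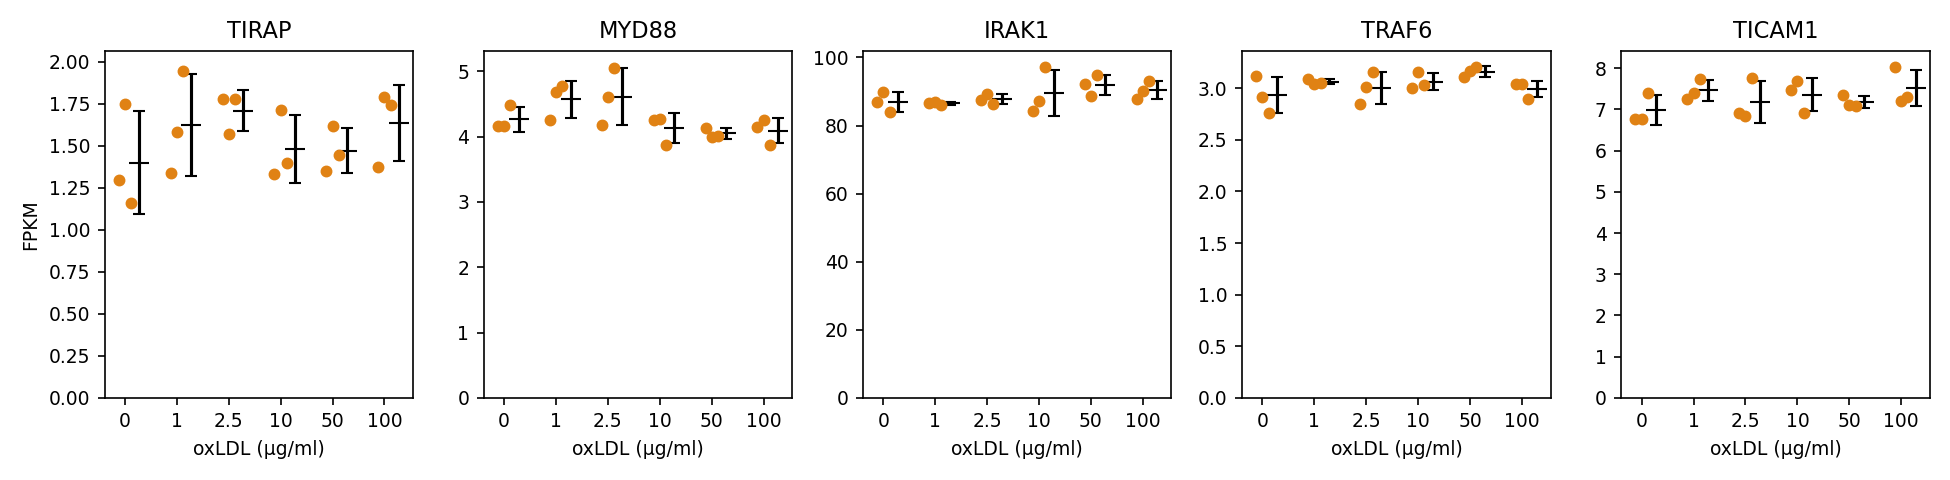
FPKM of TIRAP, MYD88, IRAK1, TRAF6 and TICAM1 (vertical axes, from 0, each with its own scale) in each library (points, 3 per dose) against the oxLDL dose in µg/ml (doses evenly spaced); black marks are means with SD. The points of each gene at 100 µg/ml overlap those at 0 µg/ml, and the spread of TIRAP is widest relative to its level.

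**Figure D3:**
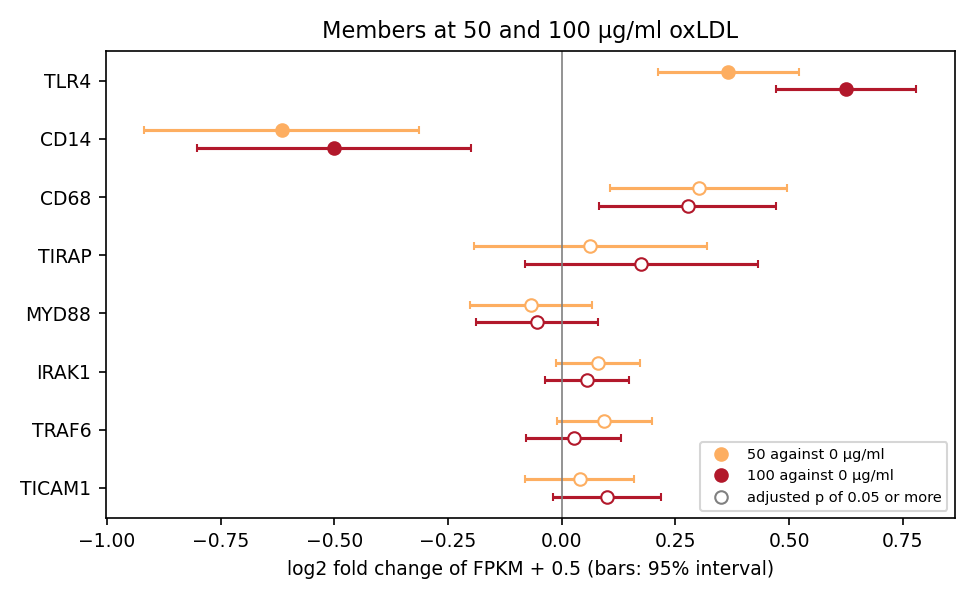
Log2 fold change of FPKM + 0.5 against 0 µg/ml (horizontal axis) for the 8 genes (vertical axis) at 50 and 100 µg/ml oxLDL; points are limma estimates from 3 libraries a dose, bars are 95% intervals, and filled points have an adjusted p under 0.05. TLR4 (0.37 and 0.62) and CD14 (-0.62 and -0.50) are filled on opposite sides of 0, and the intervals of CD68 lie above 0 with open points.

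Per length, the order of the members at 0 µg/ml was IRAK1 (86.9 ± 2.9 FPKM), CD68 (12.3 ± 0.3), TICAM1 (6.98 ± 0.36), MYD88 (4.27 ± 0.19), TRAF6 (2.93 ± 0.18), TIRAP (1.40 ± 0.31), CD14 (1.08 ± 0.10) and TLR4 (0.790 ± 0.047), each as mean ± SD over 3 libraries. Neighbours in this order were apart in their libraries except TIRAP and CD14. At 2.5 and 10 µg/ml CD14 and TLR4 overlapped. At 50 and 100 µg/ml TLR4 stood above CD14 with no overlap, and at 100 µg/ml it overlapped TIRAP (1.63 ± 0.23 against 1.49 ± 0.10). The first 6 places were held by the same genes in the same order at every dose. Levels between genes depend on the length used: the FPKM of TRAF6 imply 7978 bases, where its exons in GENCODE v29 cover 4871, so its level and its place beside MYD88 rest on an annotation that is not stated. Comparisons of 1 gene between doses do not depend on it.

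Over the 18 libraries, the profile of TLR4 was most like those of SRXN1 (Pearson r = 0.973), PRNP (0.972) and OSGIN1 (0.970) among 10485 genes tested with a mean of at least 1 FPKM. SRXN1 reduces overoxidized peroxiredoxins, PRNP encodes the prion protein and OSGIN1 is an oxidative stress-induced growth inhibitor. All 3 were also called at 100 µg/ml, with folds of 0.73, 0.82 and 1.78. CD14 was most like FLOT2 (0.886), SDC1 (0.856) and MVP (0.849), and CD68 most like TFPI (0.974), HHIP (0.953) and HMGA1 (0.940). FLOT2, TFPI and HHIP were called at 100 µg/ml, with folds of -0.15, 0.31 and 0.32. SDC1, MVP and HMGA1 were not called, with folds of -0.04, -0.11 and 0.20. The chain had CCL2, CD82 and QNG1 nearest to MYD88 (0.828, 0.825 and 0.794) and QSOX1, NCL and CPED1 nearest to IRAK1 (0.930, 0.921 and 0.899). The nearest gene was ZNF544 for TRAF6 (0.799), FAM32A for TIRAP (0.706) and ZDHHC24 for TICAM1 (0.751). Between members, r was -0.779 for TLR4 and CD14, 0.792 for TLR4 and CD68, -0.688 for CD14 and CD68, 0.832 for CD68 and IRAK1 and -0.699 for CD68 and MYD88. These values describe 18 libraries that share their doses and their depth, and the high doses stand apart from the rest.

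Of the known partners of TLR4 and CD14, TLR2, LBP, CD36 and TICAM2 were not listed in the table and have no value here. The same held for TLR1, TLR5, TLR7, TLR8, TLR9, TLR10, CD180, LY86 and BPI, so the listed Toll-like receptors were TLR4, TLR3 and TLR6. TLR3, TLR6 and LY96 were listed but fell under the filter, and were examined in a fit of all 13992 genes that was added after these data were seen. In that fit 6.2% of genes were called at 50 µg/ml, 13.4% at 100 µg/ml and 22.6% by slope. The scavenger receptor SCARB1, the other listed gene among co-receptors and ligand transfer, had a fold of -0.03 at 100 µg/ml (95% interval -0.12 to 0.06, limma adjusted p = 0.755).

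TLR6, which pairs with TLR2 for bacterial lipopeptides and has been described with TLR4 in sensing oxLDL, was 0.141, 0.163 and 0.157 FPKM at 0 µg/ml. It was 0.211, 0.230 and 0.256 FPKM at 50 µg/ml and 0.226, 0.254 and 0.291 FPKM at 100 µg/ml. All 6 libraries at the high doses lay above all those at the lower doses, 0.112 to 0.186. Its fold at 100 µg/ml was 0.21 (SE 0.05, limma adjusted p = 0.00647), called in all 20 other settings run without the filter. At 50 µg/ml its fold was 0.16 (SE 0.05, limma adjusted p = 0.0502), and 5 of the 20 called it: those without replicate 1 or 3 at 2.5 µg/ml (0.0466 and 0.0438), replicate 2 at 10 µg/ml (0.0496), replicate 1 at 100 µg/ml (0.0497) and replicate 3 of the same dose (0.0428). Its values rest on 20 to 82 reads each.

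LY96, whose product MD-2 forms the lipid pocket of the TLR4 complex, was 0.0955, 0.145 and 0.0469 FPKM at 0 µg/ml, from 6, 12 and 4 reads. These FPKM imply a length of 3053 bases, where its exons in GENCODE v29 cover 607, so its level, and its place under the filter, depend on an annotation that is not stated. It was 0.358, 0.172 and 0.310 FPKM at 50 µg/ml (36, 13 and 18 reads) and 0.201, 0.245 and 0.282 FPKM at 100 µg/ml (11, 28 and 12 reads). The libraries at both doses lay above those at 0 µg/ml, with the ratio of means at 2.92 and 2.53, and values at 2.5 and 10 µg/ml (0.141 to 0.219 FPKM) overlapped those at 50 and 100 µg/ml. The folds were 0.38 (SE 0.08, limma adjusted p = 0.00872) and 0.32 (SE 0.08, limma adjusted p = 0.0124). Both were lost without untreated replicate 3 (0.0510 and 0.0681), and the second also without replicate 3 at 100 µg/ml (0.0636). TLR3, the endosomal receptor for double-stranded RNA that signals through TICAM1, was 0.226, 0.271 and 0.274 FPKM at 0 µg/ml and 0.353, 0.285 and 0.203 FPKM at 100 µg/ml, with overlapping libraries (limma adjusted p = 0.860).

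**Figure D4:**
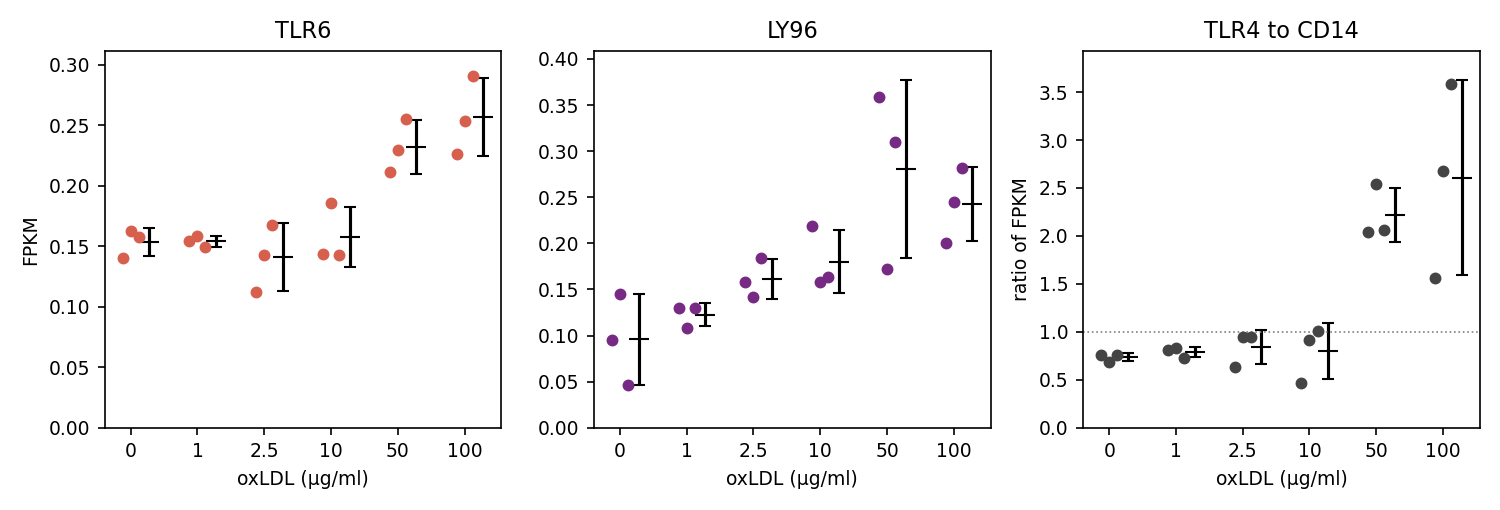
FPKM of TLR6 and LY96 and the ratio of TLR4 to CD14 in FPKM (vertical axes, from 0) in each library (points, 3 per dose) against the oxLDL dose in µg/ml (doses evenly spaced); black marks are means with SD, and the dotted line is a ratio of 1. TLR6 is at most 0.186 up to 10 µg/ml and at least 0.211 above it, LY96 at 0 µg/ml is 0.0469 to 0.145, and the ratio goes from 0.470 to 1.01 up to 10 µg/ml to 1.56 to 3.58 at the high doses.

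The other genes of the pathway were taken from 12 lists of 119 genes, of which 87 were listed and 79 tested. At 50 µg/ml limma called 5 of the 79 higher and 4 lower (11.4%, beside 7.47% of all genes), and at 100 µg/ml 11 higher and 12 lower (29.1%, beside 15.5%). Their median folds at these doses were -0.009 and 0.0009, against 0.0041 and -0.0037 for all genes tested. The count at 50 µg/ml of 9 fell to 2 without untreated replicate 1 or 3 or replicate 3 at 50 µg/ml, and to 3 without replicate 2 at 50 µg/ml, and was 14 without replicate 3 at 2.5 µg/ml. The count at 100 µg/ml of 23 was 13 without untreated replicate 1, 15 without untreated replicate 3 and 14 without replicate 3 at 100 µg/ml. The 9 called at 50 µg/ml were TMED7 (0.15), HSP90AA1 (0.22), HSPD1 (0.16), MAP2K3 (0.13) and LAMP2 (0.11) higher, and NFKBIA (-0.40), SIGIRR (-0.23), BGN (-0.26) and IFIT2 (-0.32) lower. Of these, HSP90AA1 kept its call at that dose in all 29 other settings, and LAMP2 in 10 of them.

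Next to the members in the chain, limma called 0 of 9 tested other adaptors and complex genes at 50 and at 100 µg/ml (0 and 1 at an unadjusted p under 0.05, and 0 by limma-voom). Of all genes it called 7.47% and 15.5% at these doses. IRAK4, the kinase that activates IRAK1, had a fold of -0.10 at 100 µg/ml (95% interval -0.24 to 0.05, limma adjusted p = 0.386), and TRAF3, the ligase of the TICAM1 branch, 0.02 (-0.11 to 0.14, 0.895). IRAK2 (0.12) and RIPK1 (-0.11) were not called either. Of 8 TLR chaperones and trafficking genes, 1 was called at each dose (12.5%, beside 7.47% and 15.5% of all genes). TMED7, a cargo receptor for TLR4 on its way to the surface, was higher at 50 µg/ml (limma adjusted p = 0.0350). CNPY4, which binds TLR4 in the endoplasmic reticulum, was lower at 100 µg/ml (-0.24, limma adjusted p = 0.0127). TMED7 was called in 22 of 29 other settings (adjusted p up to 0.143, without replicate 3 at 50 µg/ml), and CNPY4 lost its call without untreated replicate 1 or 3 (0.0521 and 0.0607). TMED7 shares 935 exonic bases with the read-through model TMED7-TICAM2, and CNPY4 shares 147 bases with TAF6 on the opposite strand. HSP90B1, the main chaperone of Toll-like receptors, had a fold of -0.07 at 100 µg/ml (limma adjusted p = 0.0740).

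The list of kinases downstream of TRAF6 and TRIF also held their subunits and ubiquitin factors, such as TAB1, UBE2N and IKBKG. Of its 15 tested genes, 3 were called higher and 0 lower at 100 µg/ml, all 3 of them kinases. At that dose 15.5% of all genes were called, 7.94% higher and 7.51% lower. TBK1, the kinase of the TICAM1 branch, was 11.0, 11.96 and 10.4 FPKM at 0 µg/ml and 13.1, 13.3 and 14.1 FPKM at 100 µg/ml, without overlap, a fold of 0.27 (SE 0.06, limma adjusted p = 0.00536). MAP2K3, an activator of p38, was 59.9, 58.6 and 63.2 FPKM at 0 µg/ml and 72.4, 73.7 and 71.5 FPKM at 100 µg/ml, a fold of 0.26 (SE 0.04, limma adjusted p = 0.000152), and was also called at 50 µg/ml (0.13, limma adjusted p = 0.0432), there in 14 of 29 other settings. MAP2K4 had a fold of 0.14 (limma adjusted p = 0.0393). TBK1 and MAP2K3 kept their calls at 100 µg/ml in all 29 other settings and MAP2K4 in 22 of them. MAP2K4 lost its call without any 1 untreated library or without replicate 1 or 3 at 100 µg/ml (adjusted p up to 0.178). It was also lost by limma-voom (0.0505) and with only the doses compared in the limma fit (0.0598). TBK1 shares 702 exonic bases with the antisense model AC135279.3, which is not listed. MAP3K7, the kinase that TRAF6 activates, had a fold of -0.01 (95% interval -0.14 to 0.11, limma adjusted p = 0.919).

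Among 7 tested transcription factors of the pathway, 2 were called at 100 µg/ml (28.6%, beside 15.5% of all genes). RELA was higher (0.11, limma adjusted p = 0.0464) and NFKB2 lower (-0.21, limma adjusted p = 0.0439). Both lie close to the threshold and were called in 12 and 17 of 29 other settings, with adjusted p up to 0.202 (RELA, without replicate 3 at 100 µg/ml) and 0.151 (NFKB2, without untreated replicate 1). Of 13 negative regulators of TLR signalling 3 were called at 100 µg/ml, all lower (23.1%, beside 15.5% of all genes called and 7.51% called lower). NFKBIA, the inhibitor that holds NF-kB in the cytoplasm and is itself one of its targets, went from 22.9, 22.1 and 26.2 FPKM to 18.9, 17.3 and 17.2 FPKM at 50 µg/ml and 18.4, 18.3 and 16.5 FPKM at 100 µg/ml. Its folds were -0.40 (limma adjusted p = 0.0119) and -0.41 (limma adjusted p = 0.00500), the first lost without untreated replicate 3 (0.0667) or replicate 3 at 50 µg/ml (0.0541). SIGIRR, an inhibitory member of the IL-1 receptor family, was lower at both doses (-0.23 and -0.24, limma adjusted p = 0.0257 and 0.00986), called in 24 of 29 other settings at 50 µg/ml and lost at 100 µg/ml without untreated replicate 1 or 3 (0.0536 and 0.0531) and with only those doses in the fit (0.0569). OTUB1, a deubiquitinase, was lower at 100 µg/ml (-0.09, limma adjusted p = 0.0323) and called in 20 of 29 other settings (up to 0.122, without replicate 3 at 100 µg/ml).

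Of 7 tested genes known as outputs of the MYD88 branch, 1 was called at 100 µg/ml (14.3%, beside 15.5% of all genes). This was CXCL1, which encodes a neutrophil chemokine. It had 4.96, 4.95 and 6.26 FPKM at 0 µg/ml and 7.51, 6.35 and 8.04 FPKM at 100 µg/ml (fold 0.41, SE 0.13, limma adjusted p = 0.0426). Its call held in 17 of 29 other settings and reached 0.165 without replicate 3 at 100 µg/ml. CXCL8 had a fold of 0.10 (95% interval -0.19 to 0.39), and CCL2, a monocyte chemokine, -0.31 (-0.55 to -0.07, limma adjusted p = 0.0803, which became 0.0102 when replicate 1 at 100 µg/ml was left out). TNF, CCL20 and PTGS2 were not listed.

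Of 5 tested genes of the TRIF branch 3 were called lower at 100 µg/ml and 0 higher. Among all genes tested, 7.51% were called lower and 7.94% higher at that dose. The 3 were IFIT1, IFIT2 and IFIT3, antiviral proteins induced by interferon. IFIT1 was 3.52, 3.37 and 3.61 FPKM at 0 µg/ml and 2.07, 2.52 and 2.35 FPKM at 100 µg/ml (fold -0.51, SE 0.09, limma adjusted p = 0.000753). IFIT2 (-0.40, limma adjusted p = 0.00700) shares 65 bases with LIPA on the opposite strand, and IFIT3 (-0.27, limma adjusted p = 0.0204) lost its call without untreated replicate 2 or 3 (0.0554 and 0.0623) or replicate 3 at 100 µg/ml (0.0735). IFNB1, CXCL10 and CCL5 were not listed.

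Endogenous ligands of TLR4 were called in 6 of 7 tested cases at 100 µg/ml, in both directions (85.7%, beside 15.5% of all genes). The matrix proteins BGN (-0.44, limma adjusted p = 0.000390), VCAN (-0.43, 0.00113) and FN1 (-0.34, 0.0240) and the nuclear alarmin HMGB1 (-0.22, 0.000835) were lower, and the chaperones HSP90AA1 (0.26, limma adjusted p = 0.000208) and HSPD1 (0.13, 0.0422) were higher. BGN, a proteoglycan, was 43.3, 38.0 and 42.2 FPKM at 0 µg/ml and 31.0, 31.3 and 28.6 FPKM at 100 µg/ml, without overlap. FN1 lost its call without untreated replicate 1 or 2 (0.110 and 0.0627) or replicate 1 or 3 at 100 µg/ml (0.0639 and 0.0865) and after quantile normalization (0.0646), and HSPD1 was not called in 10 of 29 other settings (up to 0.167, without replicate 3 at 100 µg/ml). On the opposite strand, HSP90AA1 shares 197 exonic bases with WDR20, HSPD1 281 with HSPE1 (165 FPKM), and VCAN 453 with VCAN-AS1. Of the pericyte and fibroblast markers, 3 of 6 tested, among them COL1A1 (-0.48) and PDGFRB (-0.51), were also called lower at 100 µg/ml (50.0%, beside 7.51% of all genes). The part of these markers in the matrix genes was not tested.

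Of 6 tested genes of the LAMP family, to which CD68 belongs, and of other lysosomal membrane proteins, 4 were called higher at 100 µg/ml and 0 lower. That is 66.7%, beside 7.94% of all genes called higher, and the median fold of the 6 was 0.14. LAMP1 was 80.5, 79.4 and 80.3 FPKM at 0 µg/ml and 88.2, 85.4 and 87.2 FPKM at 100 µg/ml (fold 0.12, SE 0.03, limma adjusted p = 0.00519). LAMP2 was 14.2, 14.6 and 14.4 FPKM at 0 µg/ml and 15.8, 16.5 and 16.0 FPKM at 100 µg/ml (0.15, SE 0.03, limma adjusted p = 0.00284). TMEM192 (0.27, limma adjusted p = 0.00583) and the cholesterol exporter NPC1 (0.19, limma adjusted p = 0.0449) completed the count. NPC1 shares 604 exonic bases with RMC1 (9.41 FPKM) on the opposite strand. LAMP1, LAMP2 and TMEM192 kept their calls at 100 µg/ml in all 29 other settings and NPC1 in 16 (up to 0.142, without replicate 2 at 100 µg/ml). The fold of CD68 at that dose, 0.28, was uncalled, and its difference from these 4 was not tested.

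**Figure D5:**
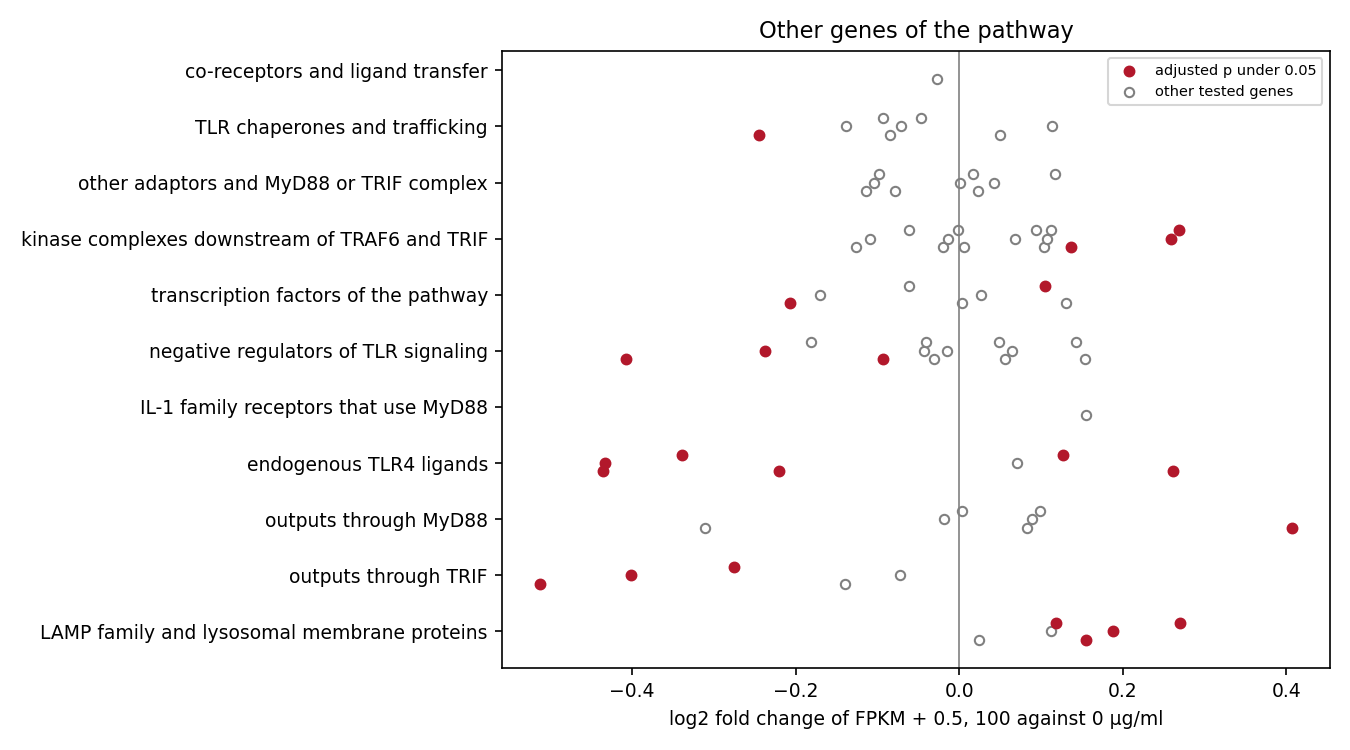
Log2 fold change of FPKM + 0.5 at 100 against 0 µg/ml (horizontal axis) for the 79 tested genes of the pathway lists other than the 8 members (points), by list (vertical axis, with points spread within a list for visibility); filled points have a limma adjusted p under 0.05. The 3 called genes of the TRIF branch lie at -0.27 or below, the 4 called lysosomal membrane genes at 0.12 or above, and no point among other adaptors is filled.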

How the data were processed

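Messenger RNA was sequenced in 18 HMC3 libraries, 3 per dose of oxLDL, from poly-A RNA with a kit that does not mark strand, per the labels' protocols. The values are FPKM for 13992 gene symbols, as deposited by the authors. Named in the submitters' processing notes, without their roles, are hg38, DESeq2, featureCounts and HISAT2 2.0.5; the annotation and the treatment of strand are not given in the sources used here.

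Values were taken as log2(FPKM + 0.5) with no further scaling. The 12127 genes that reached 0.5 FPKM in 3 or more libraries were fitted with 1 mean per dose over all 18 libraries (limma 3.58.1 in R 4.3.3), 12 residual degrees of freedom and an eBayes variance trend. Tests were two-sided, with Benjamini-Hochberg adjustment within each comparison over all genes tested and a threshold of 0.05. A slope on log2(dose + 1) was fitted in place of the dose means. The fit was tested on simulated data, in which the same spread between libraries was added for every gene. That spread may differ from the spread of these libraries, so the simulation does not give the error of the calls here. No 2 libraries of a dose were alike enough to be 1 library deposited again.

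Whole read numbers were recovered from the steps of the deposited FPKM for 13988 genes (99.97%, within 0.05 reads) and used for read numbers, Poisson intervals and limma-voom. Their absolute scale rests on RefSeq lengths of single-exon genes, of which 69.7% of 340 compared were equal. Reads carry no molecular identifiers and so are not independent molecules; intervals cover counting error only.

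The 8 members and all gene lists were chosen with earlier results of these data known. Named are all members, 11 partner genes fixed by name (LY96, LBP, TLR2, TLR3, TLR6, CD36, IRAK4, TICAM2, TRAF3, TBK1 and MAP3K7), up to 3 genes per pathway list with the smallest adjusted p at 100 µg/ml, all called genes of a list and direction where these were 5 or fewer, and the 3 genes most correlated with each member. The pericyte and fibroblast markers COL1A1, PDGFRB, THY1, COL1A2, CSPG4 and ACTA2 were named after their values were seen. Positions and overlaps are from GENCODE v29, and sequences from RefSeq. The alternatives were other pseudocounts, filters and scalings, quantile normalization, robust or trend-free eBayes, only the doses compared, a replicate block, limma-voom and each library left out in turn.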

Additional observations from a re-analysis of the deposited data

How the results depend on the processing

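The calls of TLR4 at 50 and 100 µg/ml and the slopes of TLR4, CD14 and CD68 were called under every alternative in which each gene was tested. Of the 8 genes, limma called 2 at 50 and 2 at 100 µg/ml, and the range with single libraries left out was 1 to 3 at each. Where a mean of at least 1 FPKM was required, a filter that TLR4 and CD14 do not pass, 0 were called at 50 µg/ml, 1 at 100 µg/ml, 1 over all doses, 1 by slope and 0 from 10 to 50 µg/ml. Over all doses 3 were called, and 2 to 3 with a library left out, and by slope 3, and 3 to 4. From 10 to 50 µg/ml 2 were called, 1 after quantile normalization, 1 without the variance trend, 0 with only those doses fitted and 0 to 3 with a library left out. From 50 to 100 µg/ml the count was 0, and 1 by limma-voom (TLR4).

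Of the other pathway genes 9 were called at 50 µg/ml, 14 after quantile normalization, 5 without the variance trend, 14 by limma-voom and 2 to 14 with a library left out; at 100 µg/ml 23 were called, and 13 to 24 with a library left out. Of all genes 906 were called at 50 µg/ml (458 to 1027 with a library left out; 458, 500, 584 and 475 without untreated replicate 1 or 3 or replicate 2 or 3 at 50 µg/ml) and 1874 at 100 µg/ml (1204 to 2011; 1204 without replicate 3 at 100 µg/ml).

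Values near 0 changed sign when a library was left out, with these ranges. At 100 µg/ml the fold of TRAF6 ran from -0.0097 to 0.064, of TRAF3 from -0.038 to 0.054, of SCARB1 from -0.058 to 0.0098, of TLR3 without the filter from -0.027 to 0.11, and of MAP3K7 from -0.065 to 0.020, the last gene also turning by limma-voom (0.012). At 50 µg/ml TIRAP ran from -0.029 to 0.19. The slope of TIRAP ran from -0.0049 to 0.011 and that of TLR3 from -0.012 to 0.0017. The cause was not tested.

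The replicate numbers are not stated to pair the libraries, and no pairing was seen in the values. Of 45 pairs of libraries with the same number and different doses, 10 had deviations correlated above 0.1 (mean 0.017, lowest -0.333). The mean of the 90 other pairs was -0.0084, and 5 of 18 libraries were closest to their own number. With the replicate block 3 members were called at 50 and 3 at 100 µg/ml, CD68 being added (limma adjusted p = 0.0485 and 0.0438), and 961 and 1921 of all genes. Among the members and the partners examined without the filter, read numbers were lowest for LY96 (from 4) and CD14 (from 10).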
